A study of Drosophila melanogaster with 15 samples.

Results

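Glutathione S-transferase genes of Drosophila melanogaster were followed across 5 groups of injected larvae in the third instar. The members were the probe sets of the array whose annotation gave exactly 1 gene symbol, where that symbol was Gst followed by D, E, O, S, T or Z. There were 34 such genes of 10844 named ones, read by 36 of the 14010 probe sets on the array. The delta class (GstD) had 11 genes, the epsilon class (GstE) 14, the omega class (GstO) 3 genes read by 5 probe sets, the sigma class (GstS) 1, the theta class (GstT) 3 and the zeta class (GstZ) 2. No probe set with several symbols carried a Gst symbol of these classes.

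Larvae with the Relish allele E20, larvae with the Dif1 allele and larvae with the dorsal1 allele were injected, according to the treatment text, with E. coli suspended in phosphate buffered saline (PBS). Wild type larvae received either the same bacteria or PBS alone, about 0.1 microliter in each case. Each group had 3 arrays, each hybridised with RNA from a pool of 20 whole larvae collected 2 h after injection. The strain behind the wild type and the background of the mutant stocks are not given in the sources used here, and mutant larvae with PBS were not analysed here. The labels disagree about the 9 mutant arrays, since their titles hold the letters ctr whereas the treatment text names E. coli; the treatment text was followed. The titles of the wild type arrays with PBS hold these letters too, those of the wild type arrays with E. coli do not, and the treatment text of the Dif arrays speaks of controls while naming E. coli. Because only wild type larvae were analysed with PBS, an effect of the mutation on the response to bacteria cannot be told apart from a difference between stocks. The labels do not tell if larvae of 1 group were reared apart, and 3 pairs of arrays within groups carry the same number in their titles (wild type with E. coli replicates 2 and 3, wild type with PBS replicates 2 and 3, dorsal mutant replicates 1 and 2), so the p-values measure a spread that may be partly technical.

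Glutathione S-transferases join the tripeptide glutathione to reactive or foreign molecules, which makes these easier to excrete, and several also reduce peroxides. The delta and epsilon classes belong to insects and other arthropods and lie in tandem arrays of duplicated genes; they are known for their part in insecticide resistance and in defence against oxidation. The sigma, theta, omega and zeta classes have relatives in vertebrates: omega enzymes reduce dehydroascorbate, and zeta enzymes act as maleylacetoacetate isomerases in the breakdown of tyrosine. In flies the transcription factor CncC, released by Keap1, activates many of these genes, with GstD1 as its usual reporter. Relish is the NF-kappaB factor of the Imd pathway, which answers Gram-negative bacteria, and Dif and dorsal are the NF-kappaB factors of the Toll pathway.

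Values are array signals scaled to a common level on each array. Differences are given as log2(signal + 80) with their standard error (SE), so those of dim probe sets are understated, and they come from 1 limma fit over all 15 arrays, with p-values adjusted by the Benjamini-Hochberg method over 11427 probe sets. A call means an adjusted p under 0.05. Signals of different probe sets were not set against each other, because probes differ in brightness. Genes of these tandem clusters can share probe sequence, and cross-hybridisation between them was not tested.

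Of the 36 probe sets, 33 reached a signal of 160 on at least 3 arrays and were tested, which covered 31 genes. The other 3 stayed under 160 on every array. GstD11 ranged between 29.5 and 108.5, GstE2 between 45.7 and 157.6, and GstE14, which is also known as noppera-bo and acts in ecdysteroid synthesis, between 25.9 and 118.8. GstD5 and GstO1 were tested on the strength of 7 of 15 arrays each, GstE13 of 10 and GstE4 of 12. For GstD5 these were all Dif and dorsal mutant arrays and Relish mutant replicate 1, without any wild type array. The filter thus kept GstD5 only through groups where it was high, and the counts of calls below include it. For GstE13 they were all mutant arrays and replicate 2 of wild type with E. coli.

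The targeted gene could be checked for Relish only. Rel read 18.9, 11.4 and 27.4 in Relish mutants, against 4980.7, 3095.2 and 3328.6 in wild type larvae given E. coli. The Dif probe set read 210.0, 213.8 and 204.3 in Dif mutants, against 246.0, 255.0 and 338.3 in wild type larvae given E. coli, a difference of -0.31 (SE 0.41, limma adjusted p = 0.761). The dl probe set read 195.8, 180.1 and 414.0 in dorsal mutants, against 722.9, 329.6 and 311.9 in wild type larvae given E. coli (-0.62, SE 0.44, limma adjusted p = 0.547). Those probe sets therefore do not check the labels of the Dif and dorsal mutants.

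Rel also bears on the conflict over the injection, since it was called higher in wild type larvae given E. coli than in those given PBS (2.23, SE 0.34, limma adjusted p = 0.00459). It read 1091.5, 1191.2 and 1272.7 in Dif mutants and 1186.9, 373.5 and 1306.5 in dorsal mutants, against the values above in wild type larvae given E. coli and 807.0, 663.6 and 721.8 in wild type larvae given PBS. It was lower in both mutants than in wild type with E. coli (-1.59 in the Dif and -2.03 in the dorsal mutants, SE 0.34 each, limma adjusted p of 0.0171 and 0.00251). Against wild type with PBS it was not called (0.64 and 0.20, limma adjusted p of 0.341 and 0.841). An effect of the mutations and a lack of bacteria cannot be told apart here, so every comparison of mutants with a wild type group rests on the treatment text.

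Against infected wild type, all but 1 of the called genes belonged to the delta and epsilon classes, with calls in both directions. These classes also held most of the members, 10 and 12 of the 33 tested probe sets. GstE1 was 7.24-fold higher in Relish mutants, GstD5 10.5-fold higher in Dif mutants, and GstD7 was at 0.111 of the wild type level in dorsal mutants, each on the log2(signal + 80) scale. GstE5 was higher in both the Relish and the Dif mutant. GstE8 was lower in both the Relish and the dorsal mutant. GstZ1, a predicted enzyme of tyrosine breakdown, was lower in dorsal mutants, and no omega, sigma or theta member was called against wild type. All 3 mutants share the same wild type arrays in these comparisons.

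**Figure D1:**
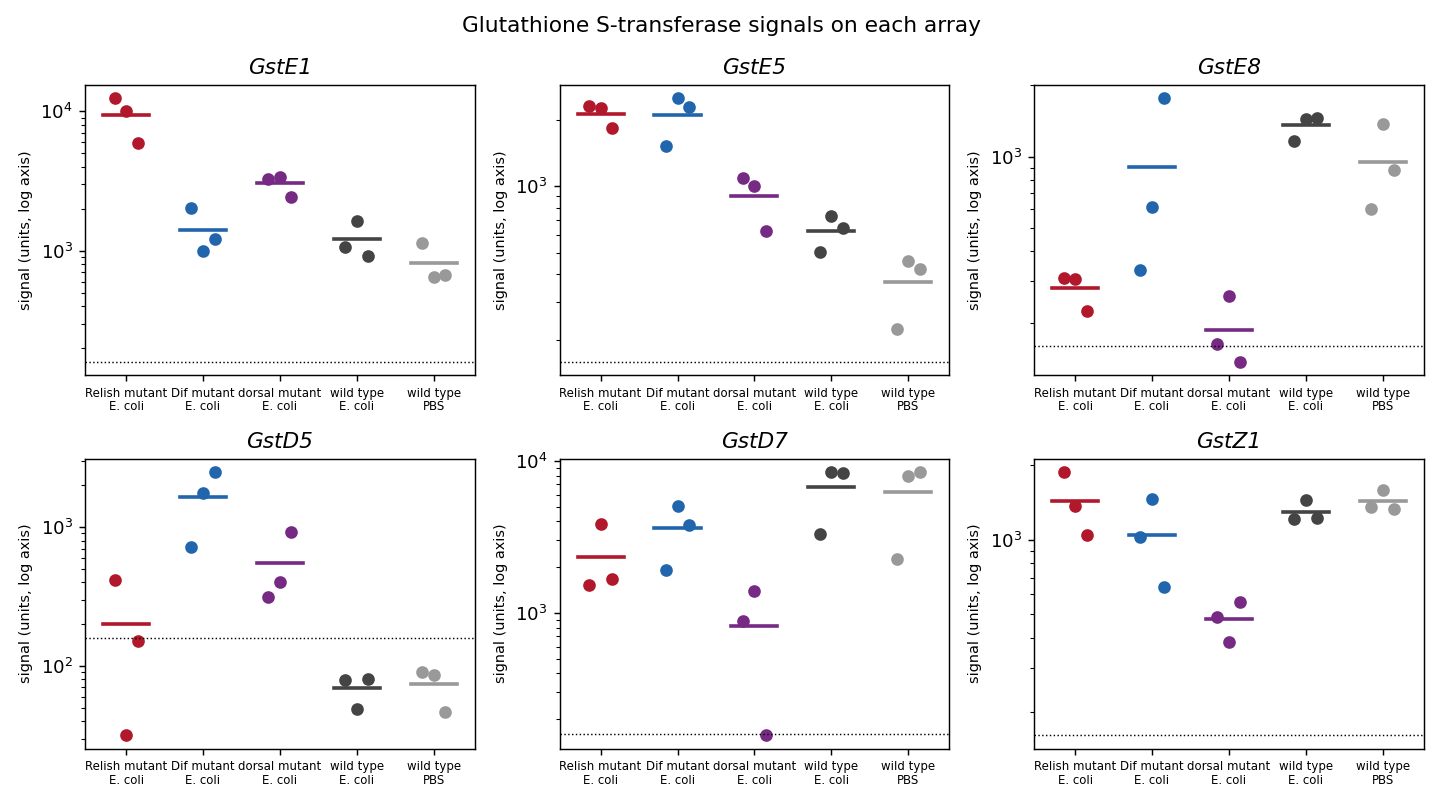
Signal (log axis, array units) of the 6 members called in at least 1 mutant against wild type with E. coli; points are the 3 arrays of a group, horizontal bars the group means and the dotted line a signal of 160. The 3 Relish mutant arrays of GstE1 sit between 5896.9 and 12415.0, above all other arrays, and the 3 dorsal mutant arrays of GstZ1 between 384.8 and 559.6, below all other arrays.

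In Relish mutants against wild type, both with E. coli, 3 of the 33 tested members were called, 2 higher and 1 lower, all of them epsilon genes. That is 9.09% of the members, where 1.88% of all tested probe sets were called. GstE1 read 12415.0, 9958.2 and 5896.9 in Relish mutants, against 1069.8, 1639.9 and 919.9 in wild type larvae given E. coli. The lowest mutant array was above the highest wild type array by a wide margin. The log2 difference was 2.86 (SE 0.32, 95% interval 2.19 to 3.52, limma adjusted p = 4.64e-05). GstE5 read 2306.1, 2266.5 and 1835.9 in Relish mutants, against 502.4, 737.3 and 644.1 in wild type larvae given E. coli. These groups were also apart on every array, with a difference of 1.65 (SE 0.28, limma adjusted p = 0.00317). Both calls held under all 17 settings tried, including the omission of each array.

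GstE8 was the member that fell in Relish mutants. It read 309.7, 305.0 and 225.0 there, against 1166.8, 1445.6 and 1459.0 in wild type larvae given E. coli. Every mutant array was lower than every wild type array, and it fell by 2.00 on the log2 scale (SE 0.42, limma adjusted p = 0.0159). The call was lost without Relish mutant replicate 3 (-1.89, adjusted p = 0.0646), without wild type replicate 2 (-1.95, adjusted p = 0.0642), without wild type replicate 3 (-1.95, adjusted p = 0.0796) and when arrays sharing a title number were averaged (-1.95, adjusted p = 0.106).

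Other members of the Relish comparison came near the threshold. GstD3 averaged 2775 ± 930 in Relish mutants and 958 ± 487 in wild type larvae given E. coli (SD, n = 3 each), a difference of 1.51 with a limma adjusted p of 0.0511, and 7 of the alternative settings brought it under 0.05. GstE13 averaged 664 ± 43.6 in Relish mutants and 172 ± 128 in wild type larvae given E. coli (SD, n = 3 each), with a difference of 1.69 and a limma adjusted p of 0.0604. In both genes all mutant arrays were above all wild type arrays. Across the 33 members, the 3 mutant arrays were all above the wild type arrays in 8 and all below in 7, where 11.7% and 7.71% of all tested probe sets did so.

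GstD1, the delta gene most used as a reporter of oxidative stress, was not called in Relish mutants. It read 52938.2, 54083.0 and 41597.1 there, against 56259.8, 96188.8 and 76366.1 in wild type larvae given E. coli. Each mutant array was below each wild type array, and the difference was -0.60 (SE 0.24, 95% interval -1.09 to -0.10, limma adjusted p = 0.259). The omega probe sets, all 5 of them, had negative differences, between -0.57 and -0.25, and none was called.

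Markers of several tissues moved with the Relish comparison in these whole larvae. The summed signal of the 7 hemocyte probe sets lay between 27569 and 33798 in Relish mutants, against 6663 to 10770 in wild type larvae given E. coli, and PPO1 and PPO2, the prophenoloxidases of crystal cells, were called higher (2.52 and 1.94). The 5 Malpighian tubule probe sets summed to between 3284 and 3439.5 in Relish mutants, against 2025 to 2322 in wild type larvae given E. coli, with salt called higher (1.15). The 8 midgut enzyme genes summed to between 639863 and 801031 in Relish mutants, against 351222 to 566522 in wild type larvae given E. coli, with none called. More cells of a type and more RNA per cell cannot be told apart in such samples, and the part of these tissues in the Gst results was not tested.

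In Dif mutants against wild type, both with E. coli, 2 members were called, GstD5 and GstE5, both higher. That is 6.06% of the 33 members, against 2.68% of all tested probe sets. GstD5 had passed the signal filter through mutant arrays alone. GstD5 read 716.2, 1761.8 and 2495.8 in Dif mutants, against 78.8, 48.8 and 80.7 in wild type larvae given E. coli. The gene was under 160 on all wild type arrays and well above it on all Dif mutant arrays, and the difference was 3.39 (SE 0.52, 95% interval 2.30 to 4.47, limma adjusted p = 0.00112). GstE5 read 1526.0, 2515.2 and 2300.3 in Dif mutants, against 502.4, 737.3 and 644.1 in wild type larvae given E. coli. The arrays did not overlap and the difference was 1.62 (SE 0.28, limma adjusted p = 0.00396). Both calls held under all 17 settings tried.

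Most other delta differences in Dif mutants were positive, without further calls. Of its 10 tested members, 8 had positive differences, the median was 0.49 where the median of all tested probe sets was 0.11, and the median stayed between 0.38 and 0.66 over the settings tried. GstD9 averaged 4694 ± 1061 in Dif mutants and 2897 ± 262 in wild type larvae given E. coli (SD, n = 3 each), a difference of 0.66 with a limma adjusted p of 0.174. GstD3 and GstD4 each had a difference of 1.08, with limma adjusted p-values of 0.158 and 0.277, and their arrays overlapped.

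Among the other classes, GstO3 was the closest to a call in Dif mutants. GstO3 read 9453.6, 10192.2 and 15319.0 in Dif mutants, against 5803.2, 8212.2 and 6566.4 in wild type larvae given E. coli. All mutant arrays were the higher ones, with a difference of 0.74 (SE 0.21, limma adjusted p = 0.0767), and quantile normalization gave 0.93 with an adjusted p of 0.0161. GstT2 had the most negative difference of the Dif mutant, -1.12, and its arrays overlapped (limma adjusted p = 0.188); without Dif mutant replicate 1 it was called (-1.66, adjusted p = 0.0304). GstE8, which fell in the other mutants, had 334.7, 615.2 and 1761.6 in Dif mutants, against 1166.8, 1445.6 and 1459.0 in wild type larvae given E. coli. The 3 Dif mutant arrays spanned more than the whole wild type range, and the difference of -0.82 was not called (SE 0.42, limma adjusted p = 0.357). The hemocyte probe sets summed to between 12737 and 14268 in Dif mutants, against 6663 to 10770 in wild type larvae given E. coli, and the part of this in the Gst values was not tested.

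**Figure D2:**
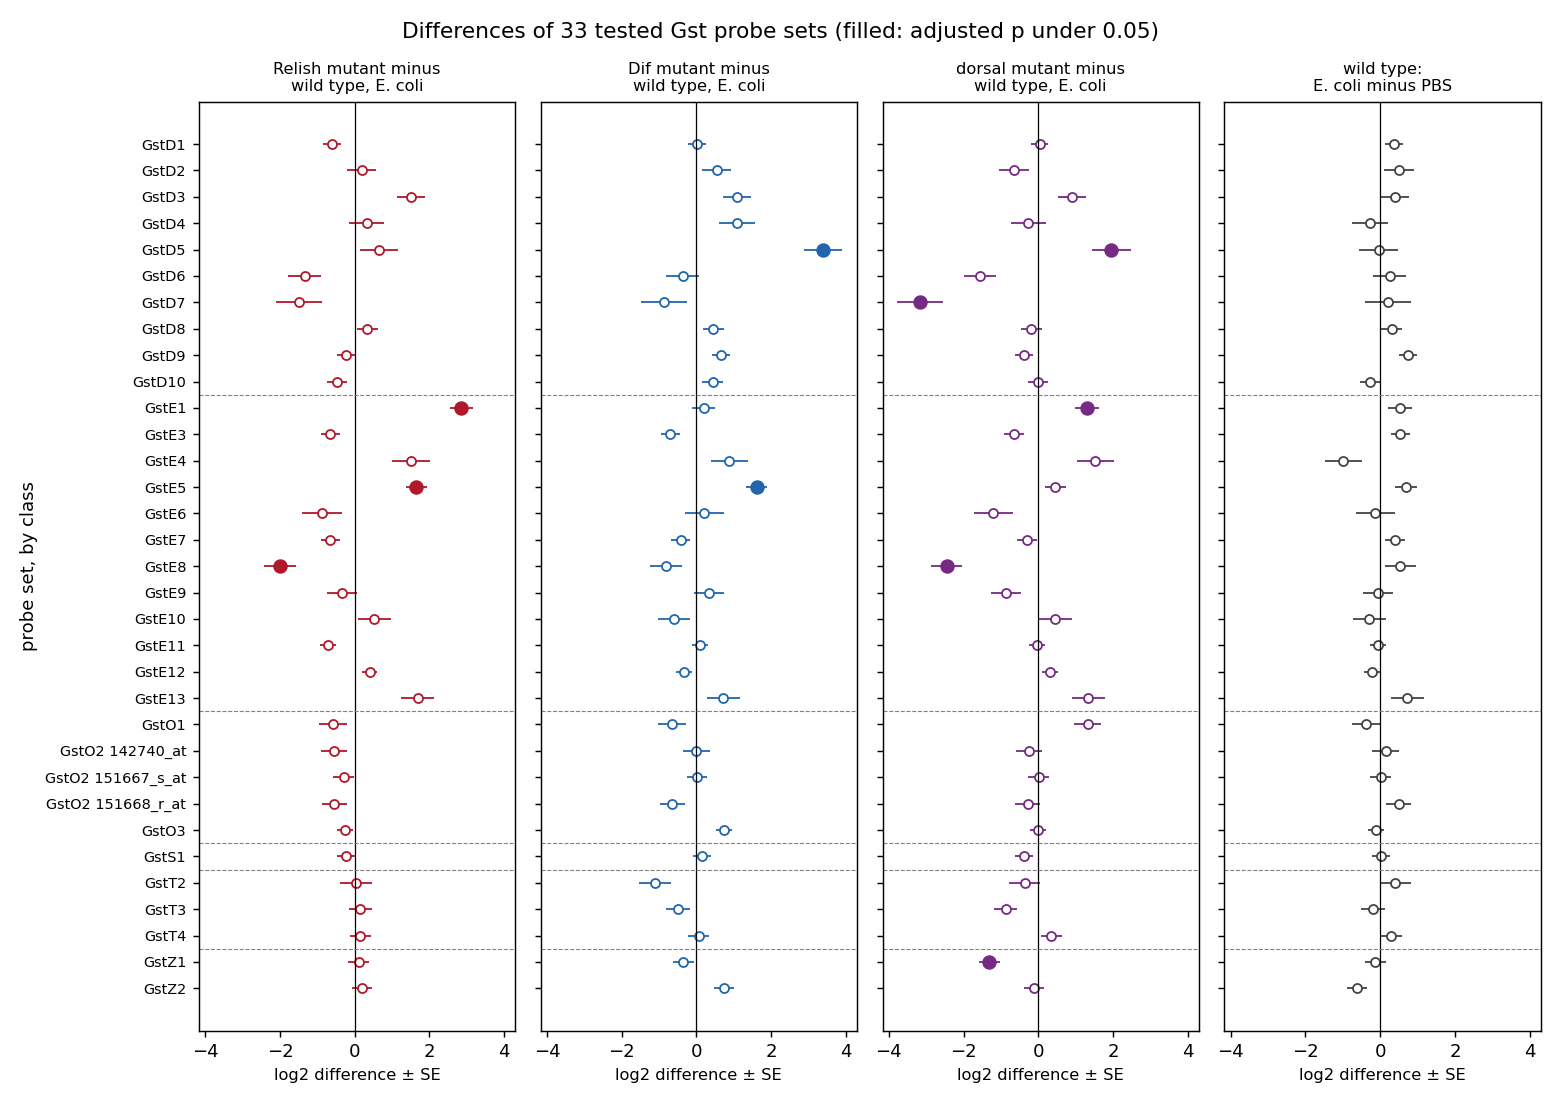
Log2 differences of the 33 tested probe sets (points, with SE as horizontal lines; filled where the limma adjusted p is under 0.05) in the 4 main comparisons, with dashed lines between the classes. The differences of wild type with E. coli against PBS lie between -0.98 and 0.74 with none filled, and those of the dorsal mutant run between -3.17 and 1.95 with 5 filled.

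In dorsal mutants against wild type, both with E. coli, 5 members were called: GstD5 and GstE1 were higher, and GstD7, GstE8 and GstZ1 were lower. That is 15.2% of the 33 members, against 3.52% of all tested probe sets. GstD7 read 887.8, 1395.1 and 155.9 in dorsal mutants, against 3306.8, 8458.7 and 8348.9 in wild type larvae given E. coli. All mutant arrays were lower than all wild type arrays, and the spread within both groups was wide. The difference was -3.17 (SE 0.61, 95% interval -4.46 to -1.87, limma adjusted p = 0.0071), and it kept its call without any 1 array, with differences between -3.71 and -2.39 and adjusted p-values up to 0.05 after rounding. The smallest difference came without dorsal mutant replicate 3 (-2.39, adjusted p = 0.0254).

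GstE8 read 162.8, 258.5 and 137.4 in dorsal mutants, against 1166.8, 1445.6 and 1459.0 in wild type larvae given E. coli. The groups were far apart, with a difference of -2.45 (SE 0.42, limma adjusted p = 0.00291). GstZ1 read 482.6, 384.8 and 559.6 in dorsal mutants, against 1212.8, 1448.8 and 1224.3 in wild type larvae given E. coli. The arrays of each group lay close together, and the difference was -1.32 (SE 0.28, limma adjusted p = 0.0131). The GstZ1 call was lost without dorsal mutant replicate 2 (-1.19, adjusted p = 0.0584), without wild type replicate 2 (-1.24, adjusted p = 0.0699) and without wild type replicate 3 (-1.35, adjusted p = 0.0507). GstZ2, the other zeta gene, averaged 450.5 ± 34.7 in dorsal mutants and 498 ± 80.6 in wild type larvae given E. coli (SD, n = 3 each), a difference of -0.12 (limma adjusted p = 0.885).

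The rises in dorsal mutants were closer to the threshold. GstE1 read 3292.9, 3388.2 and 2437.8 in dorsal mutants, against 1069.8, 1639.9 and 919.9 in wild type larvae given E. coli. No arrays overlapped and the difference was 1.30 (SE 0.32, limma adjusted p = 0.0306). GstD5 read 314.3, 402.2 and 927.0 in dorsal mutants, against 78.8, 48.8 and 80.7 in wild type larvae given E. coli, a difference of 1.95 (SE 0.52, limma adjusted p = 0.0434). The GstE1 call was lost without dorsal mutant replicate 1 or 2 (1.24 and 1.22, adjusted p of 0.0946 and 0.0995) and without wild type replicate 1 or 3 (1.24 and 1.14, adjusted p of 0.0727 and 0.154). The GstD5 call was lost without any 1 of the 6 arrays, with differences between 1.55 and 2.23 and adjusted p-values up to 0.171. None of the 5 calls held when arrays of the same title number were averaged, which left 2 values a group in dorsal mutants and in both wild type groups. Of all tested probe sets, 0.621% were then called, against 3.52% in the main fit.

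Across the 33 members, the dorsal mutant arrays were all above the wild type arrays in 3 and all below in 7, where 13.3% and 8.45% of all tested probe sets did so. Several uncalled members had differences of more than 1 in dorsal mutants. GstD6, the neighbour of GstD7, read 186.5, 423.3 and 88.6 in dorsal mutants, against 614.1, 771.8 and 888.8 in wild type larvae given E. coli. Its arrays did not overlap, and the difference was -1.55 (SE 0.43, limma adjusted p = 0.0591). GstO1, a member whose class reduces dehydroascorbate, read 650.5, 496.8 and 638.3 in dorsal mutants, against 390.5, 113.1 and 135.6 in wild type larvae given E. coli. All dorsal mutant arrays were the higher ones, with a difference of 1.32 (SE 0.37, limma adjusted p = 0.0615). GstE4 and GstE13 had differences of 1.53 and 1.34, with overlapping arrays and limma adjusted p-values of 0.117 and 0.123.

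Tissue markers differed here too. The 7 salivary glue probe sets summed to between 292375 and 571738 in dorsal mutants, against 5693.9 to 234386 in wild type larvae given E. coli, and Sgs4 was called higher in all 3 mutants (8.35 in the dorsal, 6.22 in the Relish and 6.21 in Dif mutants). Sgs4 was the only 1 of the 7 called in each mutant. The glue sums ran from 2789.7 to 399576 in Relish mutants and from 44080.7 to 374945 in Dif mutants, both overlapping wild type with E. coli. Glue genes are switched on late in larval life. The 7 hemocyte probe sets summed to between 12999 and 15838 in dorsal mutants, against 6663 to 10770 in wild type larvae given E. coli, with Hml, Pxn and PPO1 called higher. The 3 fat body and serum protein genes summed to between 218646 and 350435 in dorsal mutants, against 131392 to 168777 in wild type larvae given E. coli, with none called. Their part in the Gst results was not tested.

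The response of wild type larvae to bacteria held no called member. In wild type with E. coli against wild type with PBS, 0 of the 33 were called by limma, where 0.158% of all tested probe sets were. Before adjustment 3 passed a limma p of 0.05, where 4.73% of all tested probe sets did: GstD9 and GstE5 with positive differences of 0.74 and 0.69, and GstZ2 with -0.63. Their limma adjusted p-values were 0.633, 0.929 and 0.965. GstE5 read 502.4, 737.3 and 644.1 in wild type larvae given E. coli, against 224.6, 458.2 and 419.5 in wild type larvae given PBS. The groups did not overlap, yet the limma adjusted p was 0.929. The 95% interval of the GstE5 difference was 0.09 to 1.29 before any adjustment for the number of probe sets. Of the other members called in mutants against wild type with E. coli, GstE1 differed by 0.52 (95% interval -0.14 to 1.19), GstD5 by -0.04 (-1.13 to 1.04), GstE8 by 0.54 (-0.34 to 1.43), GstD7 by 0.20 (-1.09 to 1.49) and GstZ1 by -0.13 (-0.72 to 0.45). The interval of GstD7 leaves room for changes of more than 2-fold in either direction.

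The infected mutants were also set against wild type with PBS, where genotype and bacteria both differ; these comparisons use the same mutant arrays as those above. In the Relish mutant 4 were called, all higher (12.1%, against 1.14% of all tested probe sets): GstE1 by 3.38, GstE5 by 2.34, GstE13 by 2.42 and GstD3 by 1.90. In the Dif mutant 3 were called, all higher (9.09%, against 2.14%): GstD5 by 3.35, GstE5 by 2.31 and GstD9 by 1.40. In the dorsal mutant 6 were called (18.2%, against 2.97%): GstE1, GstE5 and GstE13 were higher by 1.82, 1.15 and 2.07, and GstD7, GstE8 and GstZ1 had differences of -2.96, -1.91 and -1.45.

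GstE13 was called against PBS and not against wild type with E. coli; whether these differences differ was not tested apart from wild type with E. coli against PBS (0.73, limma adjusted p = 1). GstE13 read 615.5, 678.4 and 699.2 in Relish mutants and 702.9, 845.7 and 195.2 in dorsal mutants, against 30.6, 49.2 and 109.4 in wild type larvae given PBS. All PBS arrays were under 160. In wild type larvae given E. coli the gene read 63.4, 312.5 and 138.8, a wide spread that overlapped the dorsal mutant. GstD9 read 3528.2, 4950.8 and 5603.9 in Dif mutants, against 1871.6, 1173.3 and 2234.6 in wild type larvae given PBS, with no overlap (SE 0.24, limma adjusted p = 0.00471). GstD3 read 2476.7, 3817.9 and 2030.4 in Relish mutants, against 1107.1, 451.9 and 565.6 in wild type larvae given PBS (SE 0.38, limma adjusted p = 0.017). Its arrays did not overlap, but the call was lost without Relish mutant replicate 1 or 2 (1.95 and 1.65, adjusted p of 0.0554 and 0.0836) and without PBS replicate 2 or 3 (1.66 and 1.80, adjusted p of 0.0994 and 0.0938). Of the 6 dorsal mutant calls against PBS, those of GstE1 and GstZ1 held without any 1 array. The GstD7 call was lost without PBS replicate 2 or 3 or dorsal mutant replicate 3 (-2.68, -2.64 and -2.19, adjusted p of 0.0731, 0.0773 and 0.051). GstE8 lost its call without the same arrays or dorsal mutant replicate 1 (-1.93 to -1.63, adjusted p up to 0.111). GstE5 lost it without any 1 array except dorsal mutant replicate 3 (0.89 to 1.30, adjusted p up to 0.132), and GstE13 without replicate 1 or 2 of either group (1.74 to 2.01, adjusted p up to 0.0714).

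Direct comparisons between mutants, all injected with E. coli, tested the differences themselves. In the Relish against the Dif mutant 3 members were called (9.09%, against 1.15% of all tested probe sets). GstE1 was higher by 2.67 in Relish mutants (SE 0.32, limma adjusted p = 0.000173), GstD5 was lower with -2.73 (SE 0.52, limma adjusted p = 0.0119) and GstO3 lower with -0.99 (SE 0.21, limma adjusted p = 0.0298). GstE1 kept its call under all 17 settings. The GstD5 call was lost without Dif mutant replicate 2 or 3 or Relish mutant replicate 2 (-2.61, -2.37 and -2.20, adjusted p of 0.0562, 0.0605 and 0.0631), and that of GstO3 without any 1 array except Dif mutant replicate 1, with differences between -1.07 and -0.77. GstE5, which rose in both, differed by 0.04 between them (95% interval -0.56 to 0.63).

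In the Relish against the dorsal mutant 4 members were called (12.1%, against 3.05%). GstE1, GstE5 and GstZ1 were higher in Relish mutants by 1.56, 1.20 and 1.42, and GstO1 was lower with -1.89 (limma adjusted p of 0.0131, 0.0328, 0.00955 and 0.00984). GstE8, which fell in both, differed by 0.45 between them (95% interval -0.43 to 1.34). The GstE1 and GstZ1 calls were lost without Relish mutant replicate 1 (1.33 and 1.22, adjusted p of 0.0721 and 0.058), and those of GstE1 and GstO1 without Relish mutant replicate 2 (1.49 and -1.76, adjusted p of 0.0657 and 0.0532). GstE5 lost its call without Relish mutant replicate 1 or 2 or dorsal mutant replicate 2 or 3, with differences between 0.97 and 1.28. In a fit of these groups alone 0 of the 4 were called, with adjusted p-values between 0.0501 and 0.0793. That fit called 0.625% of all tested probe sets.

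In the Dif against the dorsal mutant 6 members were called (18.2%, against 5.18%): GstD7 by 2.30, GstD9 by 1.04, GstE5 by 1.16, GstE8 by 1.63 and GstO3 by 0.75 were higher in Dif mutants, and GstO1 was lower with -1.96. GstO1 read 150.1, 73.7 and 64.7 in Dif mutants, against 650.5, 496.8 and 638.3 in dorsal mutants. The groups were far apart, and this call alone of the 6 held under all 17 settings (SE 0.37, limma adjusted p = 0.00558). The delta class as a whole had 9 of 10 positive differences here with a median of 1.11, where the median of all tested probe sets was 0.03, and 7 of its 10 members had an unadjusted limma p under 0.05, against 10.3% of all tested probe sets in that direction. The count of 6 was 1 without Dif mutant replicate 2, 2 without Dif mutant replicate 3, 3 without dorsal mutant replicate 1 or replicate 3, and 10 without Dif mutant replicate 1. The share of all tested probe sets was 2.04% and 3.14% without Dif mutant replicates 2 and 3. It was 2.4% and 5.02% without dorsal mutant replicates 1 and 3, and 5.39% without Dif mutant replicate 1.

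By class, the delta median was -0.02 in the Relish, 0.49 in the Dif and -0.23 in dorsal mutants against wild type with E. coli, and the epsilon median was 0.03, 0.15 and 0.13, where the median of all tested probe sets was 0.09, 0.11 and 0.10. In the same order the omega median (5 probe sets) was -0.55, -0.0005 and -0.01. The theta median (3 probe sets) was 0.15, -0.50 and -0.37, and the zeta median (2 probe sets) 0.16, 0.19 and -0.72. The Relish medians of the delta, epsilon and theta classes changed sign under some of the settings. So did the Dif medians of the epsilon and omega classes and the dorsal mutant median of the omega class. The median size of the difference, sign ignored, was 0.55 in the Relish, 0.54 in the Dif and 0.46 in dorsal mutants over the 33 members, where it was 0.34, 0.37 and 0.36 over all tested probe sets. In wild type with E. coli against PBS it was 0.30 over the members and 0.24 over all. Most members had a mean signal above the array medians of all tested probe sets, which lay between 338.4 and 457.4. Differences of dim probe sets are understated on this scale, and sizes were not compared at equal signal.

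GstD1, GstS1 and GstT4 had no call in any comparison. GstD1 had group means between 49539 and 76334, a ratio of 1.54 between the highest and the lowest group, and GstS1 had a ratio of 1.44. GstS1, the sigma enzyme that conjugates the lipid peroxidation product 4-hydroxynonenal, read 4771.1, 4645.4 and 4905.4 in Relish mutants, 6064.8, 5043.3 and 7979.2 in Dif mutants and 3208.9, 4112.1 and 5932.3 in dorsal mutants, against 7365.9, 4907.0 and 4933.6 in wild type larvae given E. coli. The mutant and wild type arrays overlapped except in Relish mutants, where all 3 lay just below the wild type arrays (-0.23, limma adjusted p = 0.736). GstT4 read 6129.0, 5998.1 and 9423.5 in Relish mutants, 11053.8, 5738.0 and 4516.7 in Dif mutants and 8960.9, 7735.4 and 7485.9 in dorsal mutants, against 6360.7, 5130.8 and 7721.5 in wild type larvae given E. coli. The groups of GstT4 overlapped in all 3 comparisons. Of 3 muscle probe sets, which bear on GstS1 because that enzyme is abundant in muscle, 1 was called higher in Relish mutants and 1 lower in dorsal mutants; their part was not tested.

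GstE3 behaved alike in the 3 mutants without a call. It read 13455.6, 11869.3 and 8486.8 in Relish mutants, 8524.1, 12837.1 and 11169.8 in Dif mutants and 13393.6, 12640.0 and 8023.8 in dorsal mutants, against 13484.6, 19381.8 and 20230.3 in wild type larvae given E. coli. All 9 mutant arrays were below the lowest array of wild type with E. coli, by a narrow margin. Wild type larvae given PBS read 9352.1, 13821.3 and 13202.7, which overlapped all 3 mutants and also wild type with E. coli. The differences were -0.65, -0.70 and -0.65, with limma adjusted p-values of 0.259, 0.175 and 0.208. At the other end, the ratio of the highest to the lowest group mean was 23.9 for GstD5, 11.5 for GstE1, 10.5 for GstE13, 8.25 for GstD7, 7.29 for GstE8, 6.19 for GstO1 and 5.81 for GstE5. Ratios that rest on dim groups, those of GstD5, GstE13 and GstO1, are uncertain.

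The 3 probe sets of GstO2 gave a check within 1 gene. Their differences were -0.56, -0.29 and -0.55 in Relish mutants, -0.00, 0.02 and -0.65 in Dif mutants and -0.25, 0.01 and -0.29 in dorsal mutants, and none was called. Their signs differed among themselves in the Dif and the dorsal mutant.

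Chromosomal order, taken from the RefSeq gene table of the Release 6 assembly, showed that called genes stood beside uncalled ones. On 3R the delta genes run GstD10, GstD9, GstD1, GstD2, GstD3, GstD4, GstD5, GstD6, GstD7, GstD8 and GstD11, with 1 other gene between GstD1 and GstD2 and 1 before GstD11. GstD5 rose in Dif mutants (3.39), where its neighbours GstD4 and GstD6 had 1.08 and -0.37. In the dorsal mutant GstD5 (1.95) stood next to GstD6 (-1.55) and GstD7 (-3.17), and GstD8 on the far side had -0.19. On 2R the epsilon cluster runs GstE10, GstE1, GstE2, GstE3, GstE4, GstE5, GstE6, GstE7, GstE8 and GstE9, with 2 other genes between GstE3 and GstE4. GstE1 rose by 2.86 in Relish mutants, where GstE10 before it had 0.53 and GstE3 after it -0.65. GstE5 and GstE8, called in opposite directions in Relish mutants, are 3 positions apart, with GstE6 at -0.88 and GstE7 at -0.65 between them.

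**Figure D3:**
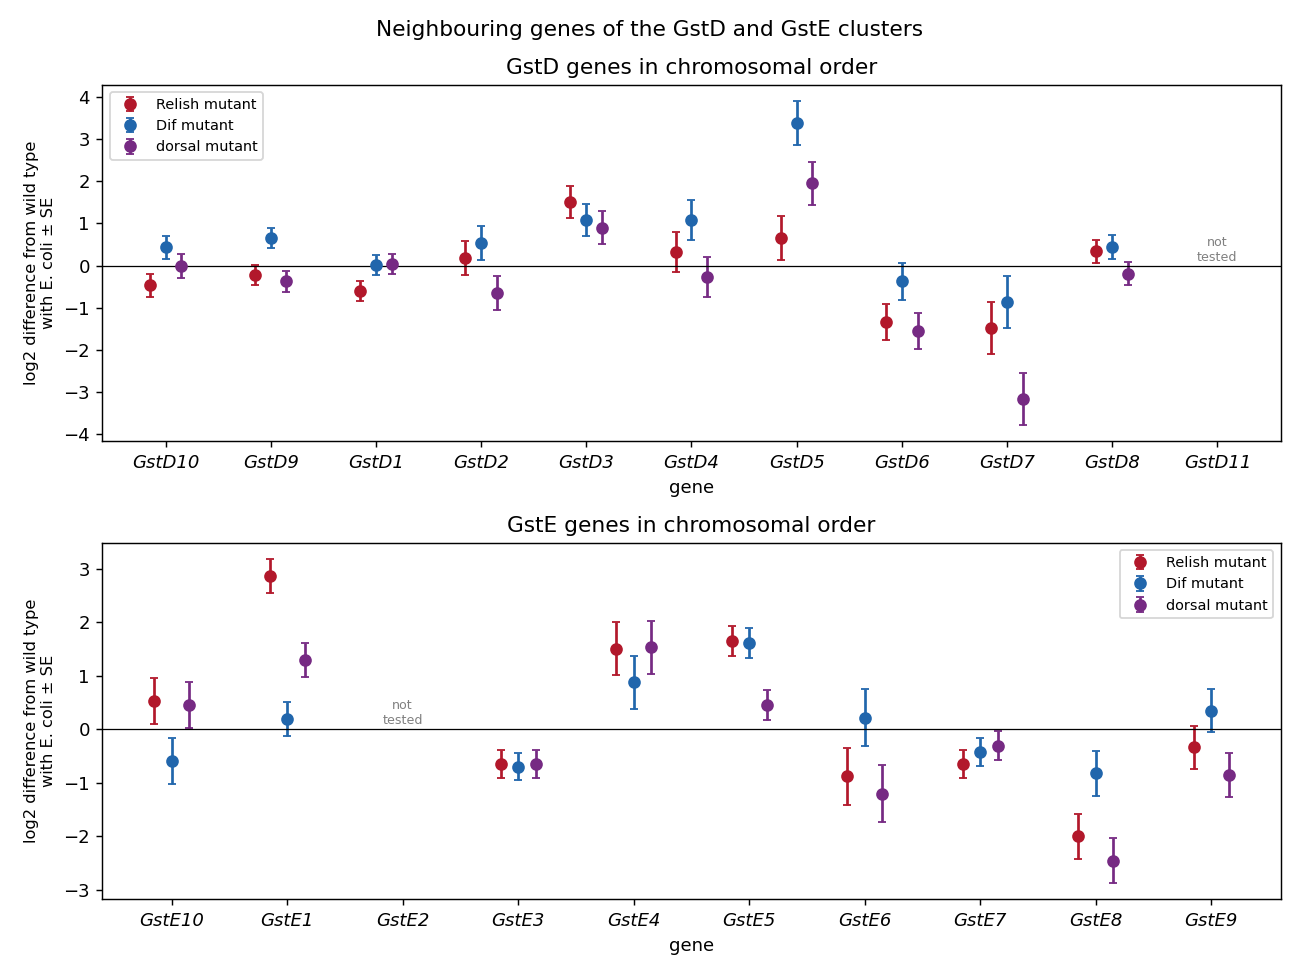
Log2 difference from wild type with E. coli (points, with SE) for the delta genes (top) and the clustered epsilon genes (bottom) in chromosomal order, evenly spaced, for the Relish, Dif and dorsal mutants. GstD5 at 3.39 in Dif mutants lies beside GstD6 at -0.37, and GstE1 at 2.86 in Relish mutants lies beside GstE10 at 0.53.

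Correlations over the 15 arrays are given as descriptions, because the arrays share groups and a common scaling. The pairs named were picked for high values over all arrays. GstD6 and GstD7, direct neighbours, had r = 0.885, and GstE6 and GstE9 had r = 0.914. GstD7 also went with GstE9 (r = 0.867) and GstE6 (r = 0.837), although these lie on another chromosome. GstD6 and GstE8 had r = 0.883. After each array was set relative to its group mean, the values were 0.821 for GstD6 and GstD7, 0.888 for GstE6 and GstE9 and 0.958 for GstD7 and GstE9, so these pairs also varied together within groups. This was not particular to them. Within groups GstD10 and GstE3 had 0.968, GstD10 and GstE9 0.941, and GstE3 and GstE5 0.931. GstE1 and GstE13 had r = 0.798 over all arrays and 0.253 within groups. The median over pairs on all arrays was 0.312 within the delta class (45 pairs), -0.01 within the epsilon class (66 pairs) and 0.01 between classes (403 pairs). Relative to the group means these medians were 0.124, 0.271 and 0.0455, so the order of the 2 classes depended on the group differences. Other neighbouring delta genes had r between -0.23 and 0.42.

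Some members differed widely between arrays of 1 group. In wild type larvae given E. coli GstD7 read 3306.8 on replicate 1 and 8458.7 and 8348.9 on replicates 2 and 3; in wild type larvae given PBS it read 2261.8 on replicate 1 and 7982.1 and 8411.7 on replicates 2 and 3. In both groups replicate 1 carries title number 1 and the others title number 2. GstE6 followed the same pattern, with 2344.5, 6141.6 and 6342.6 in wild type larvae given E. coli and 3730.5, 5704.1 and 5666.4 in wild type larvae given PBS. The lowest array of a group carried title number 1 in at least 4 of 5 groups for 12.1% of the 33 members (GstD6, GstD7, GstD8 and GstT3), where this held for 7.11% of all tested probe sets. It did so in no group for 6 of the 33 (GstD3, GstE1, GstE12, GstT2, GstT4 and 1 of the GstO2 probe sets), where this held for 6.25% of all. In dorsal mutants 2 of the 3 arrays carry title number 1, and the lowest array for GstD6, GstD7, GstE6 and GstE9 was the other one. In a fit with title number 1 against the others as a term, chosen after these data were seen, GstD7 in dorsal mutants had -2.99 (limma adjusted p = 0.0149), and GstD5 in dorsal mutants lost its call (2.00, limma adjusted p = 0.061). What the title numbers stand for is not given in the sources used here.

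**Figure D4:**
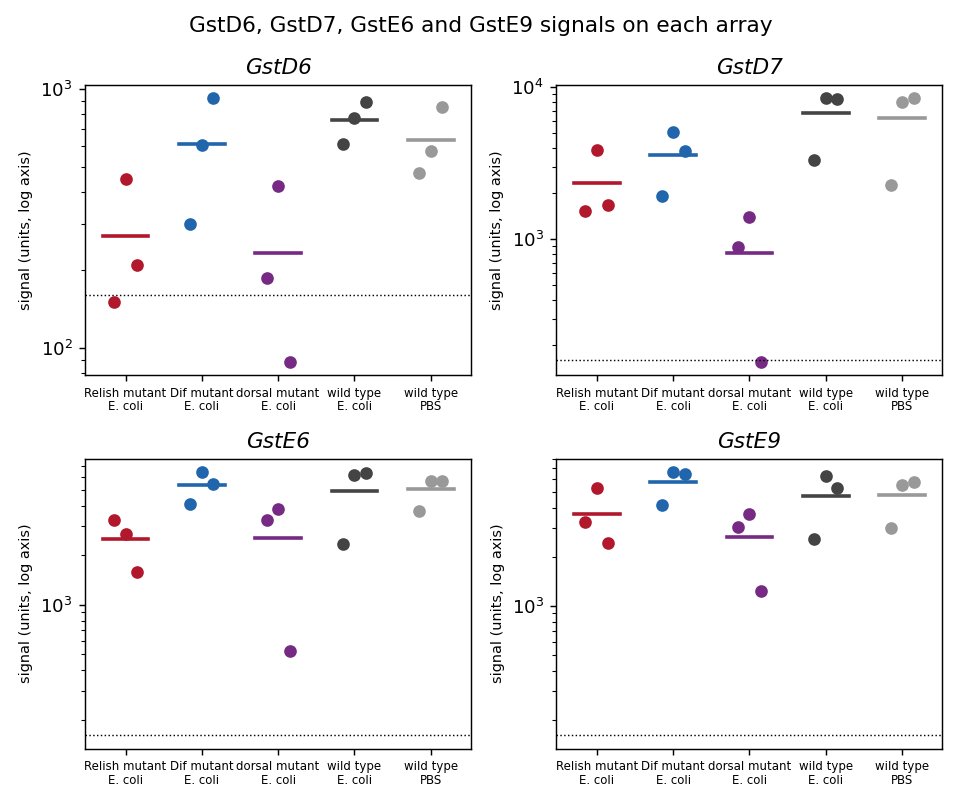
Signal (log axis, array units) of GstD6, GstD7, GstE6 and GstE9 on each array; points are the 3 arrays of a group from replicate 1 on the left to replicate 3 on the right, bars are group means and the dotted line a signal of 160. Replicate 1 of both wild type groups is the lowest in GstD7, GstE6 and GstE9, and dorsal mutant replicate 3 is the lowest array of all in GstD7, at 155.9, and in GstE6, at 524.4.

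Related genes outside the symbol rule were read from lists. The regulators of the CncC system, 3 genes read by 5 tested probe sets, had no call in any mutant or in wild type with bacteria. Among 5 genes with a glutathione S-transferase fold or a membrane-bound enzyme outside the rule, Mgstl, the microsomal glutathione S-transferase, was lower in dorsal mutants in 2 of its probe sets (-1.13 and -0.83, limma adjusted p = 0.0434 and 0.0431). Of 7 tested genes that make or use glutathione, Grx1, a glutaredoxin, was higher in Relish mutants (1.40, SE 0.21, limma adjusted p = 0.000924), and none was called in the other mutants against wild type with E. coli.

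Other detoxification enzymes also moved singly. Of 6 tested inducible phase I genes, Cyp12d1-d, a cytochrome P450 that foreign compounds induce, was lower in all 3 mutants, with -3.80 in the Relish, -3.91 in the Dif and -4.09 in dorsal mutants. Cyp6g1, the P450 of DDT resistance, was higher in dorsal mutants (1.79), as was Cyp6d5 (0.95). Of 26 tested UDP-glycosyltransferase genes, which attach sugars to foreign compounds, Ugt35C1 and Ugt37A2 were higher in Relish mutants (1.45 and 1.47) and Ugt37C2 lower (-1.46). In the Dif mutant Ugt37A2, Ugt37A3 and Ugt301D1 were higher (1.97, 1.76 and 1.15), and in dorsal mutants Ugt301D1 was higher (1.56). None of the genes of these lists was called in wild type with E. coli against PBS.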

How the data were processed

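RNA from pools of whole larvae of the third instar was hybridised to 15 arrays of the first Affymetrix Drosophila genome design, 3 in each of 5 groups. The authors deposited 1 intensity per probe set and array, a linear signal from Microarray Suite 5.0 per the submitters' processing notes; the trimmed means, equal on all arrays (800.2 to 800.25), show a global scaling. Detection calls were not used here, and no interval from counting applies: the number of arrays limits the precision.

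Signals were turned into log2(signal + 80). Control probe sets were left out, and probe sets were tested when at least 3 arrays reached 160, which removed 2539 and left 11427. A limma 3.58.1 model in R 4.3.3 with 1 mean per group, a variance trend and 10 residual degrees of freedom gave all 10 comparisons, with Benjamini-Hochberg adjustment over all tested probe sets in each. The scripts were tested on simulated data. Gene names came from the platform annotation: of 13966 non-control probe sets, 12443 had 1 symbol, 327 several and 1196 none, and 12394 of the single symbols were found in the RefSeq gene table.

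Groups followed the labels' treatment text and genotype. Values on every array are given for members called in the 4 main comparisons and for the member of each class with the highest mean signal, and genes of the lists are named where called in one of those comparisons. Values on single arrays of GstD3, GstD6, GstD9, GstE6, GstE13 and GstO1, for some of the groups, were added after their values were seen. The members and gene lists were chosen with earlier results of these data known. Alternatives were the pseudocount, the filter, quantile normalization, the variance trend, array weights, averaging of arrays that share a title number, a replicate block, fits of single pairs of groups and the omission of each array.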

Additional observations from a re-analysis of the deposited data

How the results depend on the processing

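Of the 36 results in which a member was called, 12 kept their call under all 17 settings tried and none changed direction under any; 26 other member results became called under at least 1 setting. The number of called members was 5 with array weights in the Relish mutant against wild type with E. coli. The share of all tested probe sets called was then 2.56%, against 1.88% in the main fit. For the dorsal mutant against wild type with E. coli the number was 3 without the variance trend, 9 with array weights and 0 when arrays sharing a title number were averaged. In the same order 1.7%, 5.9% and 0.621% of all tested probe sets were called, against 3.52% in the main fit. Averaging also gave 0 for the dorsal mutant against PBS, 0 for the Relish against the dorsal mutant and 1 for the Dif against the dorsal mutant. The shares of all tested probe sets were then 0.245%, 0.761% and 1.33%, against 2.97%, 3.05% and 5.18% in the main fit. Averaging leaves fewer values per group, and whether this is why calls were lost was not tested. Fits of the compared groups alone, which use fewer arrays, gave 1 for the Relish against the Dif mutant, 0 for the Relish against the dorsal mutant and 1 for the Dif against the dorsal mutant. In these fits 0.91%, 0.625% and 1.67% of all tested probe sets were called. The Dif against the dorsal mutant had 2 without the variance trend, 10 with array weights and 3 with the title number as a term, an alternative chosen after seeing the data. In the same order 3.31%, 6.41% and 3.83% of all tested probe sets were called. The cause of the changed counts was not tested for any of these settings.

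With each array left out in turn, the number of called members ranged between 2 and 4 for the Relish, 2 and 3 for the Dif and 3 and 6 for the dorsal mutant against wild type with E. coli, and stayed at 0 for wild type with E. coli against PBS. The shares of all tested probe sets were 1.02% to 1.48%, 1.35% to 2.02%, 1.28% to 3.32% and 0.0881% to 0.158% in this order. The number of called members ranged between 3 and 4, 3 and 4, and 2 and 5 for the same mutants against PBS. The shares of all tested probe sets were 0.651% to 0.999%, 0.792% to 1.42% and 1.06% to 2.51%. For the Relish against the Dif mutant the number lay between 1 and 4, for the Relish against the dorsal mutant between 1 and 4, and for the Dif against the dorsal mutant between 1 and 10. The shares of all tested probe sets there were 0.542% to 1.06%, 0.999% to 2.74% and 2.04% to 5.39%. The main fit did not pair the samples by replicate number. Arrays of the same number in different groups had correlations of their deviations between -0.106 and 0.34, with 7 of 30 pairs over 0.1. Those of different numbers had correlations between -0.266 and 0.189, with 6 of 60 pairs over 0.1. Of the 15 arrays, 7 correlated best with their own number, so some sharing by number remained possible. With the replicate block the counts were 4, 2, 7 and 0 in the 4 main comparisons, 4, 4 and 8 against PBS, and 3, 5 and 9 between mutants. The shares of all tested probe sets were 2.05%, 2.85%, 4.1% and 0.184% in the main comparisons. They were 1.25%, 2.54% and 3.83% against PBS, and 1.38%, 3.54% and 5.92% between mutants. Quantile normalization moved the median difference of all tested probe sets by over 0.1 in 3 comparisons. For the Dif mutant against wild type with E. coli it was 0.01 in place of 0.11, and the number of called members was 3. Of all tested probe sets, 2.57% were then called.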
